A study of Mus musculus with 2 samples.

Results

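The antigen presentation genes described here are 7 of the 26840 genes in the merged expression table: the class I genes H2-D1, H2-K1 and B2m and the class II genes H2-Aa, H2-Ab1, H2-Eb1 and Cd74. They were chosen by their UMI counts in the cell classes of both libraries, with those values already known, so every level and every genotype difference given for them is a description with no test. All 7 had unique molecular identifiers (UMIs, each counting 1 captured transcript) in both libraries. The study profiled cells of the arcuate nucleus and median eminence, at the base of the hypothalamus, by Drop-seq, which captures single cells with barcoded beads in droplets and counts the 3′ ends of transcripts. The WT group was wildtype CD-1 mice and the Irx5KO group was Irx5-/- CD-1 mice, both aged 7 to 8 weeks, and CD-1 is an outbred stock. Dissected tissue of 7 WT and of 6 Irx5KO mice was pooled, and each pool gave 1 library of sorted live cells. A genotype difference is therefore a difference between 2 libraries with no replicate check.

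MHC class I molecules are made by almost all nucleated cells and show peptides from the cytosol to CD8+ T cells. Each is a heavy chain, such as those encoded by H2-K1 and H2-D1, held at the surface by β2-microglobulin, the product of B2m. MHC class II molecules show peptides from the endosomal route to CD4+ T cells and are made mainly by professional antigen-presenting cells, with Cd74 encoding the invariant chain that guards the groove until the endosome. In the brain, most neurons and glia have little class I and class II is best known from border macrophages, dendritic cells and reactive microglia.

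H2-K1 lies at positions 33996017 to 34000347 of mouse chromosome 17 on the minus strand and H2-D1 at 35262730 to 35267499 on the plus strand (mm10, GENCODE M21). The class II genes H2-Ab1 (34257689 to 34269419, plus), H2-Aa (34282744 to 34287823, minus) and H2-Eb1 (34305867 to 34316674, plus) sit between them on the same chromosome. B2m lies outside this region, on chromosome 2 (122147686 to 122153083, plus). All 7 members are annotated as protein-coding.

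Promoters are shown because the class I genes differed together between the libraries in some cell classes while the class II genes were counted in few cells. The RefSeq promoter table (GRCm38.p6) covers 250 bases before to 50 bases after the transcription start. It held entries for H2-D1, H2-K1, B2m, H2-Aa and H2-Eb1 and no entry for H2-Ab1. For H2-K1 the first of 2 entries is shown. Cd74 was not among the genes looked up. The windows are chr17:35262844-35263143 (plus strand) for H2-D1, chr17:34000298-34000597 (minus) for H2-K1, chr2:122147437-122147736 (plus) for B2m, chr17:34287774-34288073 (minus) for H2-Aa and chr17:34305617-34305916 (plus) for H2-Eb1. Capitals mark matches on either strand to CCAAT, the core of the Y box, to the interferon response core (GAAA, any 2 bases, GAAA), to the X1 box core (AGNAAC, any 2 bases, ATG), and to GAAGTGAAA, which was chosen after the sequences were seen.
H2-D1: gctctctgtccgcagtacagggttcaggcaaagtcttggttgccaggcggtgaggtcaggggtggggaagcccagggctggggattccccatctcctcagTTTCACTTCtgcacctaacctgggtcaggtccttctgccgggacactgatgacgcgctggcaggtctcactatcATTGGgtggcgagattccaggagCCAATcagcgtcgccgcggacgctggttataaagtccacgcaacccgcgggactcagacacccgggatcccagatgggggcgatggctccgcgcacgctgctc
H2-K1: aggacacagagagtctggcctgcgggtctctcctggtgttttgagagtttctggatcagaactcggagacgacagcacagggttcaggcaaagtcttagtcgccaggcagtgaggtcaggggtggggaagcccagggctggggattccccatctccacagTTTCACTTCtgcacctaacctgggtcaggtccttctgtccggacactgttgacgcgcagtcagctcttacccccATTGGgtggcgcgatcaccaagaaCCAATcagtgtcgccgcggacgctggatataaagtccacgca
B2m: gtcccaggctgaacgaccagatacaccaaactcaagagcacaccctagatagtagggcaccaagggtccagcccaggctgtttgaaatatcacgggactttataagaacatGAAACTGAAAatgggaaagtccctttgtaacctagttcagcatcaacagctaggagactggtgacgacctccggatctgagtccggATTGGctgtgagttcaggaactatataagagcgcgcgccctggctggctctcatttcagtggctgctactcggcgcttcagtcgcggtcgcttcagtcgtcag
H2-Aa: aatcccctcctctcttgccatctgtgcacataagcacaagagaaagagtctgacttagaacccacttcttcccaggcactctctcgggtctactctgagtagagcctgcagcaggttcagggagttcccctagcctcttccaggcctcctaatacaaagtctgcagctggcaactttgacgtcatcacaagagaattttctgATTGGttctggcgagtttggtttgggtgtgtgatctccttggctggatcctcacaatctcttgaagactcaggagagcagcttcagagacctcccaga
H2-Eb1: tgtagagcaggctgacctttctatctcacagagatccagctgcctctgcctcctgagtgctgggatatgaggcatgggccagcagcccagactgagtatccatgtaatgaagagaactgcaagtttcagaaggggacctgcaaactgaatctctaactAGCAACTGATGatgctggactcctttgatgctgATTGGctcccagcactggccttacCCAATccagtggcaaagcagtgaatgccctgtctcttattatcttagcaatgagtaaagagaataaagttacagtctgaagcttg

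H2-D1 and H2-K1 each held 2 CCAAT matches and 1 GAAGTGAAA match, which lies on the strand opposite to the gene, and B2m held 1 CCAAT match and 1 interferon response core. H2-Aa held 1 CCAAT match, and H2-Eb1 held 2 CCAAT matches and 1 X1 box core. No matches of different motifs overlapped. Of the 32851 promoters in the table, 37.4% held CCAAT, 3.44% the interferon response core, 0.895% the X1 box core and 0.505% GAAGTGAAA. These are letters in a reference sequence, and binding was not measured.

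After filtering, 1819 WT and 1949 Irx5KO cells remained, with medians of 1620 and 1692 UMIs per cell and totals of 3884458 and 4915775 UMIs. Irx5, the deleted gene, had 13 UMIs in 11 WT cells and 0 UMIs in Irx5KO cells, where a count of 0 allows up to 3. Cells of both libraries were clustered together without the antigen presentation genes, and each cluster was named from marker genes as "X-like". Only 1 barcode sequence occurred in both libraries. Intervals below are 95% intervals that cover counting error alone.

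Class I transcripts were counted in every cell class, and their levels separated immune and vascular cells from neurons and oligodendrocytes. In WT the summed class I level was 5250 UMIs per 1000000 UMIs of the class (CPM; 4414 to 6199) in the 20 endothelial-like cells and 4785 CPM (4296 to 5314) in the 54 microglia-like cells, whose intervals overlap. Epithelial-like cells (3042 CPM) and vascular leptomeningeal-like (VLMC-like) cells, which line the meninges and larger vessels (2761 CPM), came next and also overlapped. Tanycyte-like (1048 CPM), mural-like (994 CPM) and oligodendrocyte precursor-like (OPC-like, 945 CPM) cells did not differ beyond their intervals, and ependymal-like cells (708 CPM) overlapped with mural-like and pars tuberalis-like cells (562 CPM). Neuron-like cells had 245 CPM (223 to 270) and oligodendrocyte-like cells 194 CPM (154 to 242). In Irx5KO, endothelial-like (9334 CPM, 8016 to 10806) and microglia-like cells (8484 CPM, 7903 to 9098) again overlapped, and VLMC-like cells (5622 CPM, 5286 to 5974) lay above epithelial-like cells (2839 CPM, 2528 to 3177).

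**Figure D1:**
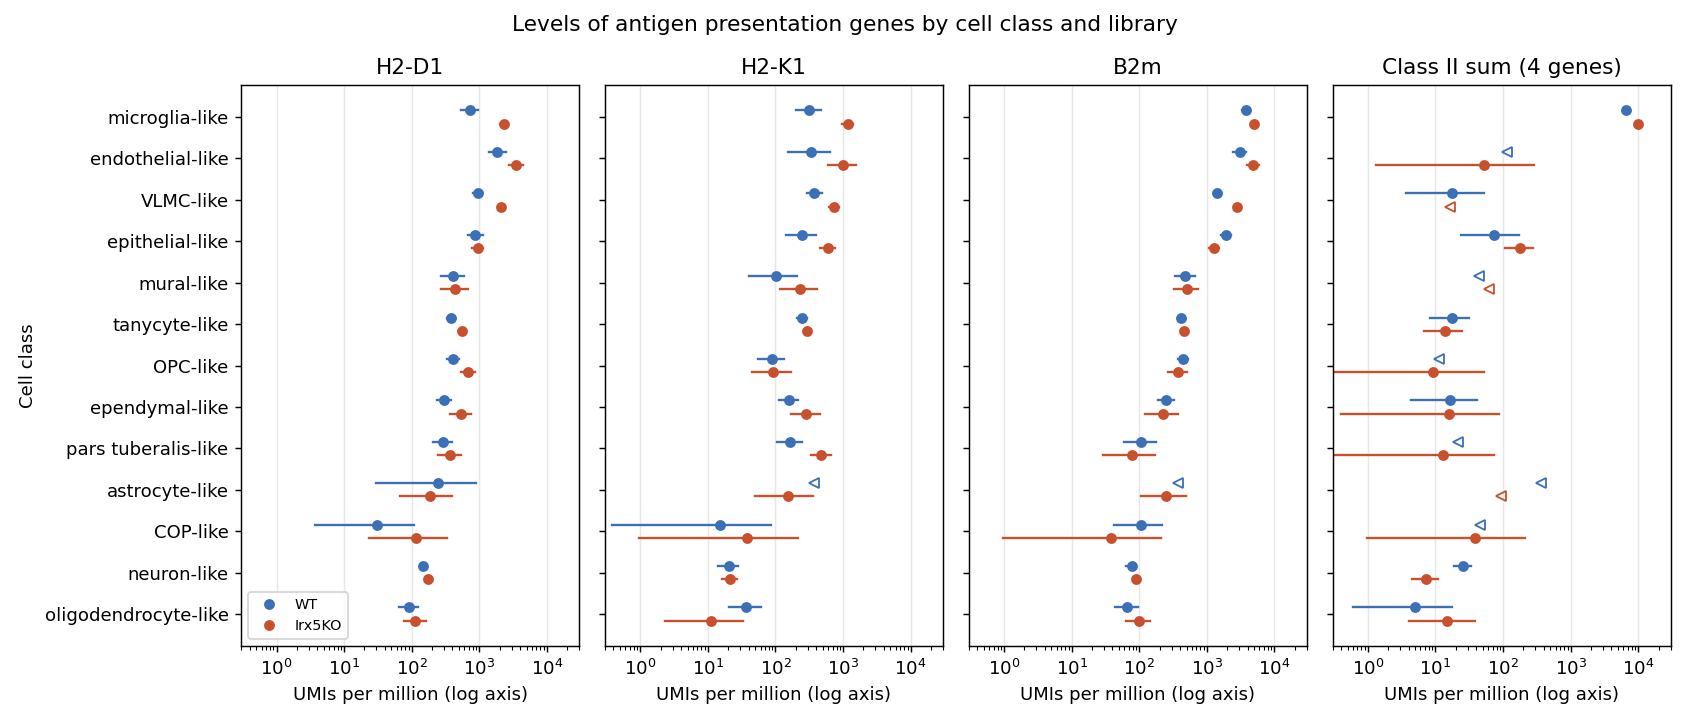
Levels of H2-D1, H2-K1, B2m and the sum of the 4 class II genes in UMIs per 1000000 (CPM, log axis) for each cell class (rows), WT in blue and Irx5KO in red. Points are summed UMIs of the class and lines are 95% Poisson intervals. Open triangles mark, for a class with 0 UMIs, the level that 3 UMIs would give. Class I genes are counted in every row (H2-K1 and B2m with 0 UMIs in the 7 WT astrocyte-like cells), while the class II sum stands at 6663 and 10033 CPM in microglia-like cells and at no more than 178 CPM elsewhere.

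H2-D1, a class I heavy chain, was higher in Irx5KO than in WT microglia-like cells. It had 53 UMIs (727 CPM, 544 to 950) in 54 WT cells and 218 UMIs (2344 CPM, 2043 to 2677) in 66 Irx5KO cells, a ratio of 3.23 (2.38 to 4.44). H2-K1, the other classical heavy chain, had 23 UMIs (315 CPM, 200 to 473) in WT and 109 UMIs (1172 CPM, 962 to 1414) in Irx5KO, a ratio of 3.72 (2.35 to 6.11). B2m, their shared light chain, had 273 UMIs (3743 CPM, 3312 to 4214) in WT and 462 UMIs (4968 CPM, 4525 to 5442) in Irx5KO, a ratio of 1.33 (1.14 to 1.55). The intervals of the levels do not overlap between libraries for any of the 3 genes, and the ratio of B2m lay below those of both heavy chains.

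The difference in heavy chains was spread over many microglia-like cells. H2-D1 had a median of 0 UMIs per WT cell and a maximum of 7, against a median of 2 and a maximum of 15 in Irx5KO, where the top cell held 6.88% of the UMIs. At least 3 UMIs of H2-D1 were counted in 6 of 54 WT cells (11.1%) and 26 of 66 Irx5KO cells (39.4%). H2-K1 reached 3 UMIs in 3 WT and 15 Irx5KO cells. The median depth was 1018 UMIs in WT and 1262.5 UMIs in Irx5KO microglia-like cells, so shares were also taken after thinning each cell to 1000 UMIs, which left 28 and 43 cells. At that depth H2-D1 was seen in 39.3% (21.5 to 59.4) of WT and 74.4% (58.8 to 86.5) of Irx5KO cells, against 44.4% and 72.7% unthinned. H2-K1 was seen in 28.6% (13.2 to 48.7) and 58.1% (42.1 to 73.0) of thinned cells, against 27.8% and 59.1% unthinned. The thinned intervals of H2-D1 overlap slightly and those of H2-K1 overlap. B2m was near ceiling, in 92.9% of WT and 97.7% of Irx5KO thinned cells (92.6% and 95.5% unthinned). As a class with little of these transcripts, oligodendrocyte-like cells (median depths 1850 and 1738 UMIs) had H2-D1 in 5.56% and 9.0% and H2-K1 in 2.47% and 3.0% of thinned cells, against 11.5% and 12.9% and 5.73% and 2.59% unthinned.

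The makeup of the microglia-like cluster also differed between the libraries. All 12 microglia markers in the table were detected in both, and their sum was 23443 CPM in WT and 16033 CPM in Irx5KO. Of the 9 macrophage markers, 7 were detected in WT with a sum of 603 CPM (Lyve1 and Mgl2 at 0) and 8 in Irx5KO with a sum of 968 CPM (Lyve1 at 0). The neutrophil markers and the T and NK cell markers were at 0 in both libraries, and the dendritic marker Flt3 was at 0. The full dendritic list still had 7 UMIs in WT and 8 UMIs in Irx5KO. Monocyte markers had 8 and 11 UMIs, and B cell markers had 18 and 14 UMIs. Among microglia-like cells with 0 UMIs of the macrophage markers, 48 in WT and 43 in Irx5KO, H2-D1 stood at 641 CPM (460 to 870) and 2454 CPM (2063 to 2897) and H2-K1 at 297 CPM (179 to 464) and 1130 CPM (870 to 1443). At this depth 0 UMIs of these markers in a cell does not show that it lacks them. Anterior pituitary markers were at 13.7 and 215 CPM and red cell markers at 274 and 10.8 CPM in WT and Irx5KO microglia-like cells, and their part in the result was not tested.

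In VLMC-like cells all 3 class I genes were about equally higher in Irx5KO. H2-D1 had 162 UMIs (952 CPM, 811 to 1110) in 129 WT cells and 386 UMIs (2085 CPM, 1882 to 2303) in 142 Irx5KO cells, a ratio of 2.19 (1.82 to 2.65). B2m had 244 UMIs (1433 CPM) and 520 UMIs (2808 CPM), a ratio of 1.96 (1.68 to 2.29), and H2-K1 had 64 UMIs (376 CPM) and 135 UMIs (729 CPM), a ratio of 1.94 (1.43 to 2.65). The 3 ratio intervals overlap, and no cell held more than 5.19% of a gene's UMIs in either library. Median UMIs per cell were 1 and 2 for H2-D1 and 1 and 3 for B2m. In cells thinned to 1000 UMIs, H2-D1 was seen in 58.6% of WT and 74.4% of Irx5KO cells and B2m in 67.8% and 88.4%, against 62.0% and 71.1% and 79.8% and 84.5% unthinned.

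All 9 VLMC markers were detected in both libraries, with sums of 56338 CPM in WT and 47741 CPM in Irx5KO. Endothelial markers in this class summed to 270 CPM in WT (5 of 9 detected) and 680 CPM in Irx5KO (8 of 9 detected), against 24853 and 19606 CPM in endothelial-like cells, and macrophage markers to 17.6 and 37.8 CPM. Their part in the class I difference was not tested. Endothelial-like cells were too few for a ratio. Their levels were 1851 CPM (1369 to 2447) in 20 WT and 3546 CPM (2753 to 4495) in 15 Irx5KO cells for H2-D1, 340 and 991 CPM for H2-K1, and 3059 and 4797 CPM for B2m. In each library 1 endothelial-like cell held 42.9% (WT) or 32.4% (Irx5KO) of the H2-D1 UMIs, and red cell markers made up 18319 CPM in WT and 52.1 CPM in Irx5KO. Epithelial-like cells, 34 in WT and 57 in Irx5KO, were also too few for a ratio. H2-D1 had 878 CPM (670 to 1130) in WT and 946 CPM (771 to 1150) in Irx5KO, and H2-K1 had 249 CPM (145 to 398) and 600 CPM (462 to 766). B2m was lower in the Irx5KO epithelial-like cells, with 1916 CPM (1602 to 2274) in WT and 1293 CPM (1086 to 1527) in Irx5KO, and 1 WT cell held 20.6% of the WT B2m UMIs.

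Differences were smaller in the neural classes with enough cells for a ratio. In tanycyte-like cells, glia lining the third ventricle, H2-D1 had 381 CPM in WT and 548 CPM in Irx5KO (ratio 1.44, 1.22 to 1.70), H2-K1 had 246 and 297 CPM (ratio 1.21, 0.976 to 1.496) and B2m had 421 and 456 CPM (ratio 1.08, 0.919 to 1.28). The H2-K1 interval spans 1 there. It still spanned 1 with median-of-ratios scaling, with all deposited barcodes, with doublets kept, with clusters from all genes and at resolution 2. With classes from a marker score its lower end was at 1. It lay above 1 with at least 800 genes per cell (1.43, 1.10 to 1.87) and with at least 200 (1.25, 1.02 to 1.545). Without the cell with most H2-K1 UMIs it also lay above 1 (1.28, 1.03 to 1.601). In OPC-like cells H2-D1 had 411 and 684 CPM (ratio 1.66, 1.22 to 2.26) and B2m had 446 and 370 CPM (ratio 0.829, 0.564 to 1.20). That B2m interval spans 1, and the B2m ratio was 1.007 as a mean over cells. H2-K1 had 87.6 and 92.4 CPM there, too few UMIs for a ratio. Neuron-like cells had 148 and 176 CPM of H2-D1 (ratio 1.19, 1.02 to 1.38), 20.3 and 21.05 CPM of H2-K1 (ratio 1.03, 0.678 to 1.60) and 76.9 and 90.7 CPM of B2m (ratio 1.18, 0.958 to 1.46). The summed class I ratio in neuron-like cells was 1.17 (1.04 to 1.32), but 1.56 as a mean over cells and 0.904 (0.777 to 1.05) when cells were classed by a marker score, so its direction rests on how the cells are drawn. Oligodendrocyte-like cells had 90.9 and 112 CPM of H2-D1 (ratio 1.24, 0.738 to 2.06) and 66.3 and 97.5 CPM of B2m (ratio 1.47, 0.824 to 2.62), both intervals spanning 1. In Irx5KO, ependymal-like (42) and pars tuberalis-like cells (46) were too few for a ratio. H2-D1 and H2-K1 together had 457 and 821 CPM in ependymal-like and 455 and 838 CPM in pars tuberalis-like cells. B2m had 62 and 14 UMIs (251 and 221 CPM) in ependymal-like and 15 and 6 UMIs (107 and 78.6 CPM) in pars tuberalis-like cells. Its counting intervals of Irx5KO over WT span 1 in both classes (0.456 to 1.59 and 0.234 to 2.01), so no direction is read.

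**Figure D2:**
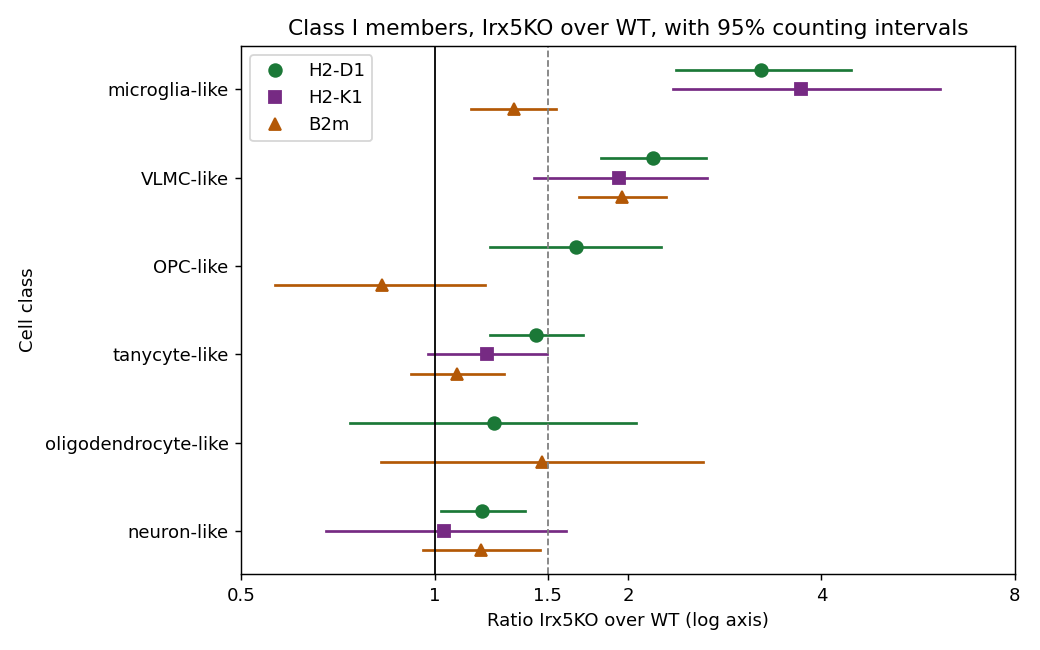
Ratio of the Irx5KO to the WT level (log axis) of H2-D1 (green circles), H2-K1 (purple squares) and B2m (orange triangles) in each cell class with at least 50 cells per library, for genes with at least 50 UMIs. Lines are exact 95% counting intervals, the solid line marks 1 and the dashed line 1.5. H2-D1 and H2-K1 in microglia-like cells lie furthest to the right at 3.23 and 3.72, and B2m in the same cells lies at 1.33.

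Summed over the 3 genes, the ratio was 1.77 (1.56 to 2.02) in microglia-like and 2.04 (1.82 to 2.28) in VLMC-like cells, against 1.24 (1.12 to 1.38) in tanycyte-like, 1.21 (0.970 to 1.51) in OPC-like and 1.14 (0.799 to 1.62) in oligodendrocyte-like cells. Drop-seq reads fall near the 3′ end of a transcript, where related genes can share sequence. Of the 50-base words in the last 500 bases, 8.92% of those of H2-D1 and 9.60% of those of H2-K1 also occur in another gene, and none of those of the other 5 genes. H2-D1 and H2-K1 share words with each other, so reads may pass between them. Their joint sum does not depend on that split and had a ratio of 3.37 (2.62 to 4.39) in microglia-like and 2.12 (1.81 to 2.49) in VLMC-like cells.

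As a size rule, genes with at least 50 UMIs in a class were counted when the libraries lay at least 1.5-fold apart. In microglia-like cells 81 of 456 measured genes (17.8%) were that much higher in Irx5KO and 64 (14.0%) lower. All 7 members were measured there and 4 were higher, namely H2-D1, H2-K1, H2-Aa and H2-Ab1, and 0 lower. In VLMC-like cells 12.2% of 1348 genes were higher and 15.1% lower, and all 3 measured members were higher. In OPC-like cells 7.60% of 1644 genes were higher and 14.3% lower, and of the members 1 of 2 measured (H2-D1) was higher. In neuron-like cells 12.4% of 10882 genes were higher and 6.41% lower, in tanycyte-like cells 10.3% of 5524 were higher and 8.27% lower, and in oligodendrocyte-like cells 9.18% of 2407 were higher and 10.7% lower. Of the 3, 3 and 2 members measured in these classes, 0 were at least 1.5-fold apart. The members were picked with these values known, so nothing is read from the counts.

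The rest of the pathway was followed with lists of 77 genes in the table, of which 15 were measured in microglia-like cells. The 4 members, picked with their values known, were the only ones of those 15 at least 1.5-fold higher in Irx5KO, and 0 were lower. Of all measured genes 17.8% were higher and 14% lower. The median log2 ratio was 0.08 over the 15 and 0.05 over all measured genes. The 3 measured peptide-loading genes had ratios below 1 with intervals spanning it: Calr, a chaperone (1056 and 925 CPM, ratio 0.876), Canx, the membrane chaperone that folds heavy chains (631 and 527 CPM, ratio 0.836), and Pdia3, the thiol oxidoreductase of the loading complex (658 and 602 CPM, ratio 0.915). Of the endosomal proteases of the class II route, Ctss, which trims the invariant chain, had 7828 and 9775 CPM (ratio 1.25, 1.12 to 1.39) and Lgmn had 2577 and 2473 CPM (ratio 0.960). Irf8, a transcription factor of myeloid cells, had 425 and 323 CPM (ratio 0.759, 0.444 to 1.296), and Ifngr1, a chain of the interferon-γ receptor, had 507 and 538 CPM (ratio 1.06).

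Other regulators and interferon genes were under 50 UMIs in microglia-like cells, and their WT and Irx5KO counts are given without a call. Irf1 had 5 and 12 UMIs, Irf2 had 10 and 20, and Ifnar2, a type I interferon receptor chain, had 12 and 15. Ifitm3, an interferon-induced membrane protein, had 2 UMIs in 2 WT cells and 20 UMIs in 8 Irx5KO cells (ratio 7.84, 1.91 to 69.2). Costimulatory ligands were barely counted, with 4 and 7 UMIs of Cd86, 5 and 4 of Icosl and 3 and 0 of Cd274.

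In VLMC-like cells 16 list genes were measured, with a median log2 ratio of 0.47 against -0.02 over all measured genes. Of the 16, 6 were at least 1.5-fold higher in Irx5KO (12.2% of all measured genes) and 0 lower (15.1% of all). The 6 include the 3 members, which were picked with their values known. The others were Psmb8, an immunoproteasome subunit (88.1 and 248 CPM, ratio 2.82, 1.55 to 5.44), Ifngr1 (217 and 448 CPM, ratio 2.06, 1.38 to 3.13) and Pdia3 (664 and 1005 CPM, ratio 1.51, 1.19 to 1.93). Psmb8 was counted in 11 WT and 27 Irx5KO cells. In neuron-like cells 2 of 32 measured list genes were at least 1.5-fold higher (12.4% of all measured genes), in tanycyte-like cells 3 of 26 (10.3% of all), in OPC-like cells 1 of 7 (7.60% of all) and in oligodendrocyte-like cells 0 of 8 (9.18% of all). In these 4 classes 0 list genes were lower, against 6.41%, 8.27%, 14.3% and 10.7% of all measured genes.

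**Figure D3:**
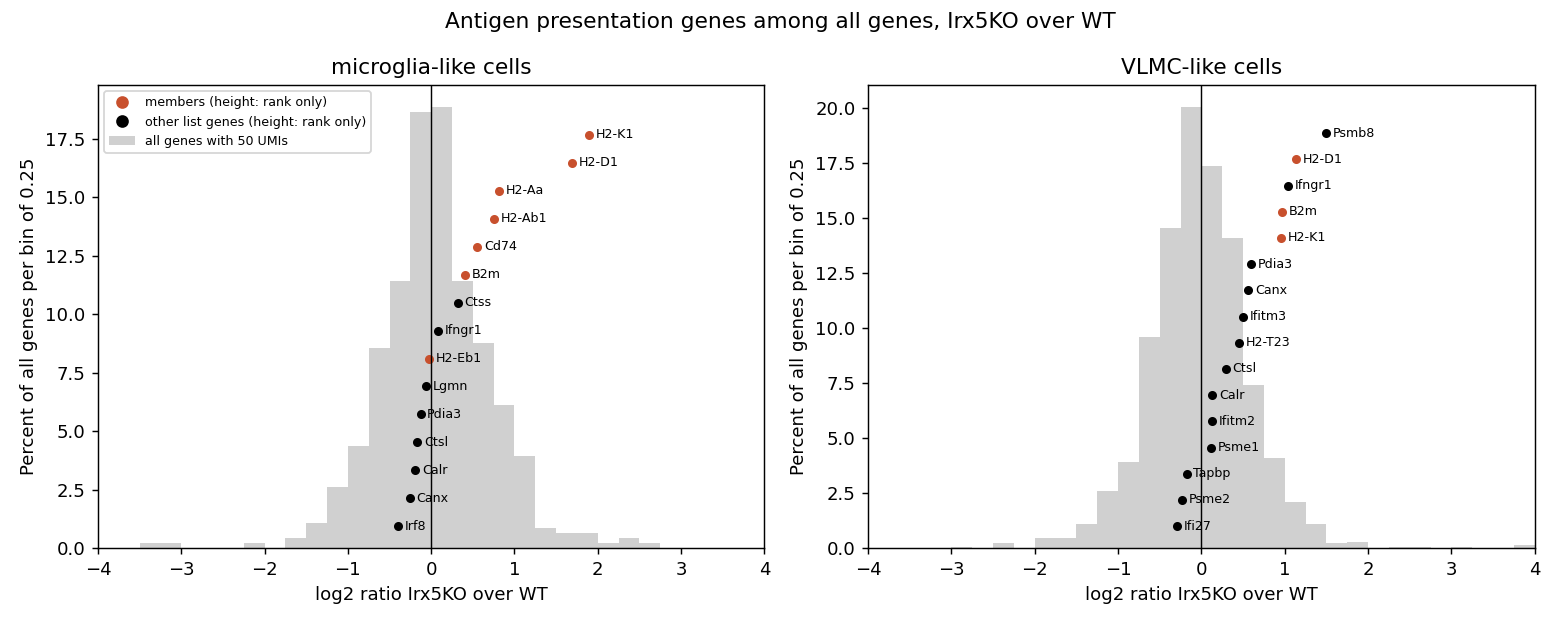
Distribution of the log2 ratio of Irx5KO to WT over all measured genes (grey bars, percent of genes per bin of 0.25) with the members (red) and other antigen presentation genes (black) placed by their own log2 ratio in microglia-like (left) and VLMC-like cells (right). The height of a point is its rank only. In microglia-like cells the members H2-K1 and H2-D1 lie furthest right and Calr, Canx and Irf8 lie left of 0, while in VLMC-like cells Psmb8 and H2-D1 lie furthest right.

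The class II counts came from a handful of cells. H2-Aa, H2-Ab1, H2-Eb1 and Cd74 together had 555 UMIs in 49 of 1819 WT cells and 994 UMIs in 75 of 1949 Irx5KO cells, and 36 and 48 of those cells held 1 UMI. Only 7 WT cells (0.385%, 0.155 to 0.791) and 12 Irx5KO cells (0.616%, 0.319 to 1.07) had at least 5 class II UMIs. Those cells held 504 UMIs in WT (90.8%) and 906 UMIs in Irx5KO (91.1%). The top cell alone held 179 UMIs (32.3%) in WT and 271 UMIs (27.3%) in Irx5KO, and the top 3 cells 68.8% and 65.7%. The lowest counts inside the threshold were 7 in WT and 6 in Irx5KO, and the highest outside it was 4 in both. Thinned to 1000 UMIs, the shallower cells being left out, 4 WT and 10 Irx5KO cells had at least 5.

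**Figure D4:**
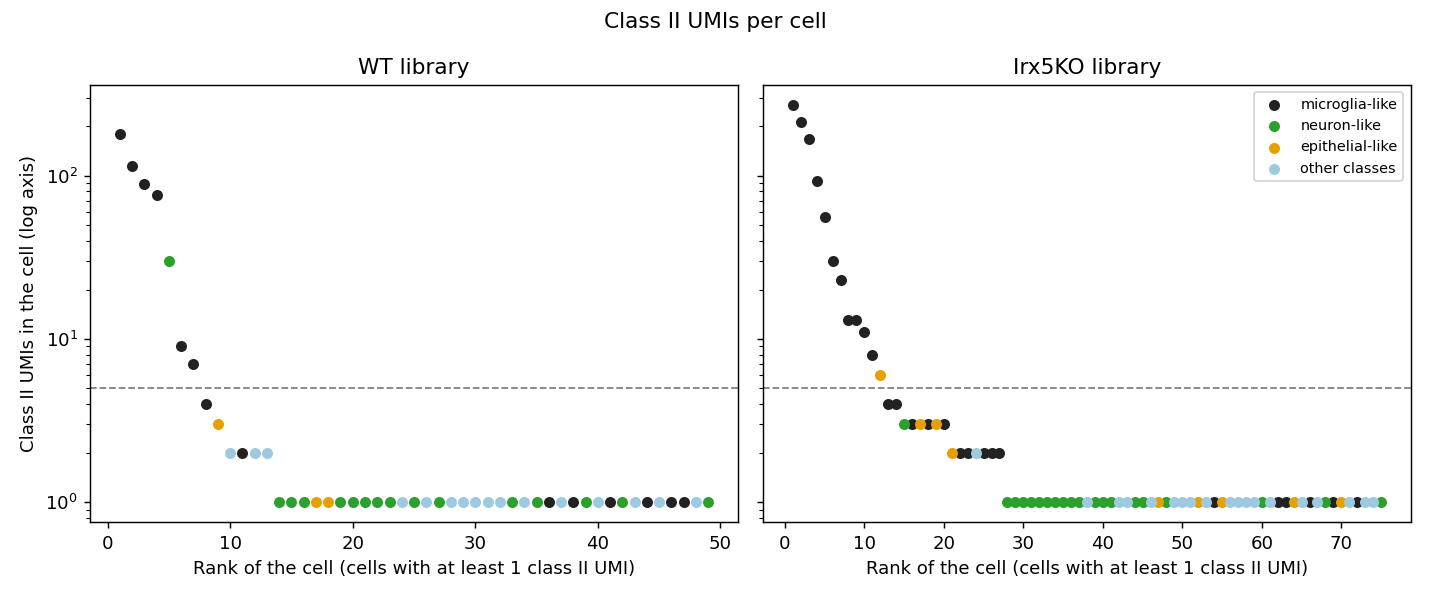
Class II UMIs (log axis) in each cell with at least 1, ranked within the WT (left) and the Irx5KO library (right) and coloured by cell class, with a dashed line at 5 UMIs. The ranking falls from 179 and 271 UMIs to 1 UMI within 14 WT and 28 Irx5KO ranks, and the cells above the line are microglia-like except 1 neuron-like cell in WT and 1 epithelial-like cell in Irx5KO.

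Most of these cells were in the microglia-like cluster, which held 87.6% (84.5 to 90.2) of the class II UMIs in WT and 93.9% (92.2 to 95.3) in Irx5KO. Within it 6 of 54 WT cells (11.1%, 4.19 to 22.6) and 11 of 66 Irx5KO cells (16.7%, 8.62 to 27.9) had at least 5 class II UMIs, and 40 and 39 cells had none. The 2 exceptions were a WT cell with 30 class II UMIs in a neuron-like cluster and an Irx5KO epithelial-like cell with 6. The WT cell had 0 UMIs of the neuron markers and 3 UMIs of the monocyte markers. Every other WT neuron-like cell had at most 1 class II UMI. Other classes had little: VLMC-like cells had 3 UMIs in WT and 0 in Irx5KO, mural-like cells had 0 in both, and endothelial-like cells had 0 and 1. A class II UMI was seen in 0.982% (WT) and 0.261% (Irx5KO) of the neuron-like cells thinned to 1000 UMIs (2.58% and 2.23% unthinned, median depths 2132 and 2414 UMIs), against 25% and 44.2% of microglia-like cells (25.9% and 40.9% unthinned). Epithelial-like cells stood between, with 5 UMIs in 3 of 34 WT cells and 19 UMIs in 9 of 57 Irx5KO cells.

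The 4 genes came in the same cells. All 4 were counted together in 5 of the 7 WT and 5 of the 12 Irx5KO cells with at least 5 class II UMIs, and class II UMIs made up to 10.04% of a cell's transcripts in WT and 7.79% in Irx5KO. Cd74, the invariant chain, was in every one of these cells and supplied 56.2% of their class II UMIs in WT and 53.8% in Irx5KO. H2-Aa and H2-Ab1, the chains of I-A, supplied 20.04% and 13.5% in WT and 24.1% and 15.5% in Irx5KO. H2-Eb1, the β chain of I-E, supplied 10.3% in WT, where 5 of 7 cells had it, and 6.73% in Irx5KO, where 5 of 12 cells had it.

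Taken as a sum, cells rich in class II had a lower microglia-marker level than the other microglia-like cells, and UMIs of both marker sets were spread unevenly among them. In WT the 6 cells with at least 5 class II UMIs had 6452 CPM (4969 to 8239) of the microglia markers and the other 48 had 26117 CPM (24871 to 27410), and in Irx5KO the 11 cells had 7142 CPM (6055 to 8367) and the other 55 had 18695 CPM (17707 to 19724). Macrophage markers stood at 4032 CPM (2881 to 5491) against 63.5 CPM (17.3 to 163) in WT and at 1727 CPM (1216 to 2380) against 741 CPM (555 to 969) in Irx5KO. These intervals do not overlap within a library, but they cover counting error and not the spread between cells. Of the microglia-marker UMIs, the WT cell with 7 class II UMIs held 35 of 64. The Irx5KO cell with 23 class II UMIs held 45 of 153, and those with most class II UMIs, 271 and 214, held 15 and 11. In WT 24 of the 40 macrophage-marker UMIs lay in the cell with 9 class II UMIs, close to the limit of 5, and 14 in the top cell, while the other 4 cells had 0 or 1. Without the cell with 24, left out after its value was seen, the WT level was 1896 CPM (1084 to 3079). In Irx5KO no cell had more than 9 of the 37 UMIs, and 8 of the 11 cells had at least 2. The most class II-rich WT cell had 14 UMIs of Ms4a7, a gene of border macrophages, and 3 UMIs of the microglia markers. Another WT cell had 10 UMIs of Mrc1, the mannose receptor of border macrophages, with 9 class II UMIs. A WT cell with 114 class II UMIs had 0 macrophage-marker and 3 monocyte-marker UMIs. An Irx5KO cell with 30 class II UMIs also had 32 UMIs of Cga, a pituitary hormone subunit. Among microglia-like cells with at least 5 class II UMIs, monocyte markers had 5 UMIs in 2 WT cells and 5 UMIs in 1 Irx5KO cell. No macrophage cluster separated from the microglia-like one. Split into subclusters, the microglia-like cells with 30 to 271 class II UMIs all fell in the same subcluster. That subcluster also held cells with 13, 4, 2 and 1 class II UMIs, and the highest count in any other was 23. Whether the cells rich in class II form a type of their own was not tested, and they were given no cell type name.

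**Figure D5:**
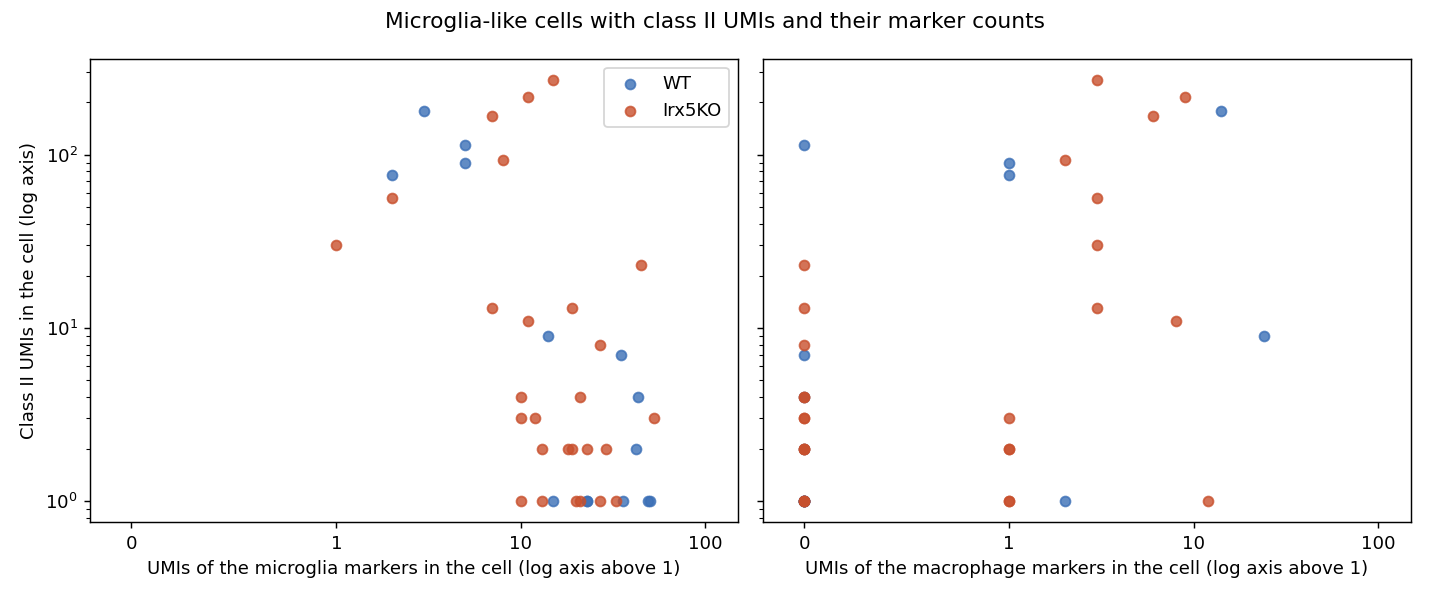
Class II UMIs (log axis) in each microglia-like cell with at least 1, against the UMIs of the microglia markers (left) and of the macrophage markers (right) in the same cell, WT in blue and Irx5KO in red, with horizontal axes linear below 1 and log above. The 9 cells with more than 50 class II UMIs have at most 15 UMIs of the microglia markers, while cells with 1 class II UMI have 10 or more.

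Cells rich in class II had higher levels of most class I members. In WT, H2-D1 was at 2016 CPM in the 6 cells with at least 5 class II UMIs and at 524 CPM in the others (ratio 3.85, 2.09 to 6.91), and B2m at 5746 and 3427 CPM (ratio 1.68, 1.23 to 2.25). WT H2-K1 was at 706 and 254 CPM (ratio 2.78, 0.967 to 7.14), an interval that spans 1. In Irx5KO, H2-D1 was at 3361 and 2040 CPM (ratio 1.65, 1.22 to 2.20), H2-K1 at 2007 and 922 CPM (ratio 2.18, 1.45 to 3.24) and B2m at 6535 and 4499 CPM (ratio 1.45, 1.18 to 1.78). Without these cells the Irx5KO to WT ratio in microglia-like cells was 3.90 (2.66 to 5.87) for H2-D1, 3.63 (2.08 to 6.72) for H2-K1 and 1.31 (1.10 to 1.57) for B2m. In cells with no class II UMI, 40 in WT and 39 in Irx5KO, H2-D1 had 14 and 74 UMIs (279 and 1460 CPM, ratio 5.24, 2.94 to 10.1). Within the cells with at least 5 class II UMIs the ratio was 1.67 (1.004 to 2.89) for H2-D1, with 20 and 72 UMIs, 2.84 (1.27 to 7.49) for H2-K1, with 7 and 43 UMIs, and 1.14 (0.830 to 1.58) for B2m, with 57 and 140 UMIs. The H2-D1 interval there starts just above 1 and the B2m interval spans 1. Every ratio in this paragraph has a group of cells under the minimum of 50 used for ratios by class. These groups are the 6 and 11 cells, the 48 WT cells without them, and the 40 and 39 cells with no class II UMI. Macrophage markers in the cells with no class II UMI summed to 39.8 CPM (WT) and 710 CPM (Irx5KO), and the levels in cells with 0 such UMIs are those given above.

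Class II levels over the whole microglia-like cluster gave no stable ratio. H2-Aa had 96 UMIs (1316 CPM) in 4 WT cells and 216 UMIs (2323 CPM) in 12 Irx5KO cells, a ratio of 1.77 (1.38 to 2.27), and H2-Ab1 had 65 UMIs (891 CPM) in 6 cells and 140 UMIs (1505 CPM) in 11, a ratio of 1.69 (1.25 to 2.30). H2-Eb1 had 51 UMIs (699 CPM) and 64 UMIs (688 CPM), a ratio of 0.984 (0.671 to 1.45), and Cd74 had 274 UMIs (3756 CPM) in 13 cells and 513 UMIs (5516 CPM) in 26, a ratio of 1.47 (1.27 to 1.71). The ratio of the sum was 1.51 (1.35 to 1.68), but 1.02 as a mean over cells, 1.71 without the top cell of each library and 3.52 when cells were classed by a marker score. As a mean over cells H2-Ab1 had a ratio of 0.971, below 1. The marker score moved cells rich in class II out of the microglia class and left 18 WT and 72 Irx5KO class II UMIs there. In WT 326 class II UMIs (58.7%) were then in a monocyte class and 174 (31.4%) in a macrophage class. In Irx5KO 814 class II UMIs (81.9%) were in the macrophage class.

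H2-Ea-ps, the I-E α chain gene that is annotated as a polymorphic pseudogene in the reference, lies near H2-Eb1 (34341959 to 34344645 of chromosome 17, minus) and was singled out after its values were seen. It had 23 UMIs in 5 Irx5KO microglia-like cells, 4 of them among the 12 cells with at least 5 class II UMIs. In WT it had 0 UMIs, where a count of 0 allows up to 3. The deposited WT counts hold no row for this gene, so the WT value comes from the merged table alone. Whether it is a measured absence was not tested. The WT cells had 54 H2-Eb1 UMIs and the Irx5KO cells 75. As background, inbred strains differ in whether this gene is transcribed, and MHC haplotypes vary among outbred mice. Haplotypes of the pooled mice were not tested, and how far they enter the counts of the H2 genes cannot be told apart from genotype with 1 pool each.

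The genes whose levels were most like those of the members were found over 23 class-by-library points with at least 20 cells, among 11448 genes, by Pearson r of log2(CPM + 10). The points share libraries and depth, so r is a description. For the class I sum these were Lgals9, a galectin (r = 0.839), Ier5 (r = 0.838), Icam1, an adhesion molecule of endothelium and leukocytes (r = 0.835), Vasp (r = 0.835) and Pros1 (r = 0.831). For the class II sum they were the myeloid genes Cd14 (r = 0.945), Lyz2 (r = 0.945), Aif1 (r = 0.908), Cxcl2 (r = 0.908) and Siglech (r = 0.908). The class II sum was at no more than 178 CPM outside microglia-like cells, so this r rests mainly on the microglia-like points. It does not show which microglia-like cells carry a gene. Siglech is one of the microglia markers, whose sum was lower in the cells rich in class II. In WT and Irx5KO microglia-like cells Cd14, a lipopolysaccharide co-receptor, was at 384 and 1161 CPM, the chemokine Cxcl2 at 356 and 1398 CPM, Lyz2 at 850 and 1065 CPM and Siglech, a microglia marker, at 1645 and 1043 CPM.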

How the data were processed

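The series holds 1 Drop-seq library of 7 pooled WT mice and 1 of 6 pooled Irx5KO mice, grouped by the genotype labels. For WT, the authors deposited UMI counts by gene and cell barcode. For Irx5KO and for both libraries merged, the deposited values are natural log values, ln(1 + 10000 times the count over the barcode's total), as the numbers themselves show. Tools named by the submitters' processing notes are bcl2fastq, Picard, STAR (2.6.0b) and Seurat (3), with the build mm10, with no role or setting stated. Whole counts were recovered from the merged table (largest deviation from a whole number 4.55e-12) and matched the deposited counts, with 0 differing entries in 4275938 WT UMIs compared by gene name. WT barcodes outside the merged table (173) were left out.

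Kept barcodes had 500 or more genes and no more than 20% mitochondrial UMIs, and doublets called with Scrublet (expected rate 5%) were removed (10 of 1829 in WT, 23 of 1972 in Irx5KO). Uncalled doublets may remain. Kept cells had 587 to 14524 UMIs. Clusters came from 2000 variable genes without the antigen presentation lists, 30 components, 15 neighbours and Leiden resolution 1, with scanpy 1.11.5, and all were named from marker lists by a scoring rule set after the clusters were seen. UMIs were summed per class and library. Levels have exact Poisson, shares Clopper-Pearson and ratios conditional binomial 95% intervals (scipy 1.17.1). In the main setting, ratios by class need at least 50 cells per library and 50 UMIs. Ratios between groups of microglia-like cells, that of Ifitm3 and some under the alternatives were given below these minimums. The calculation of ratios was tested on simulated data.

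With 1 library per genotype no test was made. Named genes are the members, list genes at least 1.5-fold apart in microglia-like or VLMC-like cells, up to 3 per list with most UMIs, and the 5 genes most like each sum. The members, lists and thresholds were chosen with earlier results of these data known.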

Additional observations from a re-analysis of the deposited data

Results flagged for a closer look

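Class II transcripts were also counted in barcodes that the gene minimum left out of all comparisons. Barcodes of the merged table with under 500 genes held 44 class II UMIs in WT, in 8 of 798 barcodes, 2 of them with at least 5. In Irx5KO they held 141 class II UMIs, in 14 of 378 barcodes, 5 of them with at least 5. Both sums lie above the 3 UMIs that a count of 0 allows, and the top barcode held 23 in WT and 36 in Irx5KO. With a minimum of 200 genes per cell, which takes most of these barcodes in, the class II ratio in microglia-like cells was 1.92 (1.72 to 2.13). Cells called doublets (10 and 23) held 0 class II UMIs in both libraries, as did the 173 WT barcodes outside the merged table.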

How the results depend on the processing

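Over all alternatives run, the summed class I ratio stayed between 1.66 and 1.90 in microglia-like and between 1.94 and 2.22 in VLMC-like cells, and the single ratios of H2-D1 and H2-K1 in microglia-like cells between 2.99 and 3.55 and between 3.50 and 3.89. The neuron-like class I ratio was 1.56 as a mean over cells and 0.904 with classes from a marker score. As a mean over cells the H2-Ab1 ratio in microglia-like cells was 0.971, the only ratio at or above 1.5 that fell below 1. Cells with at least 5 class II UMIs numbered 4 in WT both when thinned to 1000 UMIs and with at least 800 genes per cell, and 20 cells in Irx5KO had at least 3. The share of class II UMIs in immune-like classes was 81.7% in WT and 91.6% in Irx5KO without the top cell, 90.3% in WT with at least 200 genes per cell, 93.2% in WT with all deposited barcodes, with doublets kept and with clusters from all genes alike, and 94.0% and 91.4% with the marker score. List genes at least 1.5-fold higher in microglia-like cells numbered 2 as a mean over cells, 8 with at least 20 UMIs and 30 with no minimum, and lower ones 2 and 12 with those minimums, fewer or more genes being measured. Of the values of single ratios and of the class II sum under the alternatives, 186 stayed within the counting interval, 20 lay outside it and 1 reversed, and the cause was not tested. The marker score left 0 WT UMIs of H2-Aa and H2-Eb1 in the microglia class, so no ratio was given. Leaving out cells rich in class II or top cells of single genes, the summing of other class I chains, and the mean over cells and scaling of single genes were chosen after seeing the data. No paired analysis was possible because each genotype is 1 pooled library. Depth limits H2-K1 outside VLMC-like, microglia-like and tanycyte-like cells and class II outside the microglia-like cluster.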
